A study of Homo sapiens with 9 samples.

Results

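The genes described here are the serine/arginine-rich (SR) and heterogeneous nuclear ribonucleoprotein (hnRNP) splicing factors of SNU5, a long-established cell line of human gastric carcinoma. Members were taken by name, as protein-coding genes whose symbol is SRSF with a number or begins with HNRNP. There were 37 of them among 60880 counted gene IDs, 12 SR and 25 hnRNP genes, and 138 pseudogenes and non-coding genes with such names were left out. Of the members, 11 SR and 22 hnRNP genes had enough counts for a test. SRSF12, HNRNPCL2 and the read-through gene HNRNPUL2-BSCL2 were listed at 0 counts in all 9 libraries, and HNRNPCL1 had 0 to 5 counts.

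SR proteins carry RNA recognition motifs and a tail of arginine-serine repeats (the RS domain), bind enhancer sequences in exons and recruit the splicing machinery to nearby splice sites. Kinases of the SRPK and CLK families phosphorylate the RS domain, which governs nuclear import and release from nuclear speckles. The hnRNP proteins coat nascent transcripts and often act at silencer sequences, so that exon choice depends on the balance between both families. Many of these genes control their own level through poison exons, whose inclusion sends the transcript to nonsense-mediated decay (NMD).

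The study sequenced poly-A RNA of cells exposed for 24 h to ramucirumab, a therapeutic antibody to the VEGF receptor VEGFR2, at 8 μg/mL in every group. The antibody was carried by PEG-coated gold nanorods in the NR group (AuNR-PEG-Ab) or gold nanospheres in the SP group (AuSP-PEG-Ab), or was given alone (Ab group), with 3 libraries per group. No group without antibody was analysed here, so every change is relative to antibody in another form. Libraries 1, 2 and 3 held 25735410, 13863155 and 15943980 counts in NR, 21682836, 22914759 and 20601906 in SP, and those of Ab held 19566064, 26318227 and 21031024. The study calls the libraries of a group biological replicates and its in vitro experiments independently repeated, while neither the labels nor the study says for these libraries which came from which culture, so p-values measure the spread between the libraries as sequenced. Levels are given as CPM, counts brought to a common library total after TMM scaling, and changes as log2 fold changes fitted in edgeR, whose quasi-likelihood p-values were adjusted over all tested genes by the Benjamini-Hochberg method.

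The label was checked against marker genes. Among 6 epithelial markers the keratin KRT8 was the most abundant in every library, whereas KRT19 had 0 or 1 counts. The 6 markers summed to 2263, 2252 and 2275 CPM in NR, 2397, 2309 and 2328 in SP, but only 938, 873 and 890.2 for Ab. CDH1 (E-cadherin) had 79 to 150 counts in NR and 134 to 159 in SP, but 5 to 9 in Ab. The Ab libraries thus stood apart in this sum, most of which was KRT8, and in CDH1. EPCAM and KRT18 were also higher in NR and SP than in Ab, without overlap. Their log2 fold changes were 1.68 and 0.57 in NR and 1.60 and 0.53 in SP. The libraries of CLDN4 overlapped between groups (adjusted p = 0.245 in NR and 0.223 in SP against Ab). The 5 fibroblast markers summed to 74.4, 70.6 and 68.4 CPM in NR, 73.7, 80.5 and 80.1 in SP, against 44.5, 41.2 and 16.8 for Ab, with COL1A1 the highest. Its members did not move together. DCN and PDGFRB were higher in NR and SP by a wide margin. Against Ab, the log2 fold changes of DCN and PDGFRB were 5.14 and 4.65 in NR and 5.23 and 4.79 in SP. In the Ab libraries DCN had only 7 to 21 counts and PDGFRB 8 to 11. COL1A1, COL1A2 and COL3A1 passed the test in neither comparison. The mean of COL1A2 was 0.482 CPM in NR, 2.16 in SP and 7.40 in Ab. The 4 endothelial markers found summed to 23.2, 23.4 and 21.2 CPM in NR, 20.8, 22.9 and 24.3 in SP, against 3.53, 3.70 and 5.07 for Ab, with CDH5 the highest, and KDR, which encodes VEGFR2, had 0 or 1 counts everywhere. The log2 fold change of CDH5 against Ab was 2.35 in NR and 2.35 in SP. VWF had 21 to 34 counts in NR and 28 to 34 in SP, but 0 or 1 in Ab. Of the leukocyte markers, PTPRC, which encodes CD45, had 0 or 1 counts in every library. The epithelial, fibroblast and endothelial sums thus separated Ab from NR and SP, as many of the splicing factors below did, and their part in those results was not tested. In bulk RNA, fewer cells of a type and less RNA per cell cannot be told apart.

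The promoters of the members with the largest rise and the largest fall in NR against Ab in each family are shown, taken among members with a single listed promoter, as the part of these genes where their transcription starts. They span 250 bases before to 50 after the RefSeq start on GRCh38.p14, a later build than that of the gene positions given below. Capitals mark matches on either strand to the CCAAT box, to a TATA box written as TATAAA, to an E-box written as CACGTG, to an ETS factor motif written as CCGGAAG, or to an NRF1 motif made of GCGC, any base and then TGCGC, and no base lay in matches to 2 motifs.
SRSF9, chr12:120469699-120469998, minus strand: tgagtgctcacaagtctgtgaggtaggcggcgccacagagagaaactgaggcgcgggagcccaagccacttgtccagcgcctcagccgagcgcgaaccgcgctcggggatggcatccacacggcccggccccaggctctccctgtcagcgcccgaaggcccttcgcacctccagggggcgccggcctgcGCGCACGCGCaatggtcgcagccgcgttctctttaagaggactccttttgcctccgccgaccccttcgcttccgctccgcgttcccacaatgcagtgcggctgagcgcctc
SRSF4, chr1:29181851-29182150, minus strand: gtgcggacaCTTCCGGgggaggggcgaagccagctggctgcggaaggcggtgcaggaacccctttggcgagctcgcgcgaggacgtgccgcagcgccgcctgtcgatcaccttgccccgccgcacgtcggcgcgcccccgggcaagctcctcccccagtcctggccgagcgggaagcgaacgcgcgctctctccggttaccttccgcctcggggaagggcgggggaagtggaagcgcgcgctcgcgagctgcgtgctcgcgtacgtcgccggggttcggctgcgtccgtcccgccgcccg
HNRNPH2, chrX:101407972-101408271, plus strand: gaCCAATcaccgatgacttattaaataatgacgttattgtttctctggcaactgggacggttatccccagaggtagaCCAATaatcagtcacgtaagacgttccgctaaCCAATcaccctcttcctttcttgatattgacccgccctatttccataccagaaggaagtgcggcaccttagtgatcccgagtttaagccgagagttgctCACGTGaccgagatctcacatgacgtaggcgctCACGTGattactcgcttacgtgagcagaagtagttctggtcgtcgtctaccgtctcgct
HNRNPLL, chr2:38602879-38603178, minus strand: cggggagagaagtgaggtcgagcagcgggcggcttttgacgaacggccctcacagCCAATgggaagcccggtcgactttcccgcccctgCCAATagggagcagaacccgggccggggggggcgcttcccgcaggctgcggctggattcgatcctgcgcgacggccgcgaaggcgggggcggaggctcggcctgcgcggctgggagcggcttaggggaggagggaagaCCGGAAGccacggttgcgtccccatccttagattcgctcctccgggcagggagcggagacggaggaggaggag
The SRSF9 window held 1 NRF1 motif, that of SRSF4 held 1 ETS motif, that of HNRNPH2 held 3 CCAAT boxes and 2 E-boxes, and that of HNRNPLL held 2 CCAAT boxes and 1 ETS motif. The HNRNPH2 window had a GC content of 48.7% and the other 3 windows had 68.3% to 74.7%. RefSeq promoters were found for 34 of the 37 members, 48 windows in all. A CCAAT box was in 52.1% of the members' windows and 34.6% of all 35116 promoters, an E-box in 16.7% and 7.26%, an NRF1 motif in 12.5% and 5.78%, a TATA box in 12.5% and 11.5%, and an ETS motif in 10.4% and 10.3%. A match is a run of letters and not a shown binding site.

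The hnRNP genes were the more abundant family. Together the 25 hnRNP genes took 1.05% to 1.13% of a library's counts, and the 12 SR genes 0.188% to 0.229%. Per length of exon, HNRNPAB, an RNA-binding protein related to HNRNPD, was the highest member at 257 CPM per kb over the 9 libraries, followed by HNRNPA1 (190.4), HNRNPK (187) and HNRNPF (168). SRSF3, the smallest SR protein and an mRNA export adaptor, was the highest SR gene at 72.5 CPM per kb, followed by SRSF2 at 66.9. The lowest tested members were SRSF10, a splicing repressor when dephosphorylated, at 2.06 CPM per kb and HNRNPUL2 at 3.02. The exons of HNRNPUL2 share 44.3% of their bases with HNRNPUL2-BSCL2, and how shared reads were counted is not given, so its level is uncertain. The SR share of counts was 0.226% to 0.229% in Ab, 0.195% to 0.201% in NR and 0.188% to 0.197% in SP, so the Ab libraries were above all 6 others. The hnRNP share was 1.05% to 1.09% in Ab, 1.12% to 1.13% in NR and 1.07% to 1.10% in SP, and the SP and Ab libraries overlapped.

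**Figure D1:**
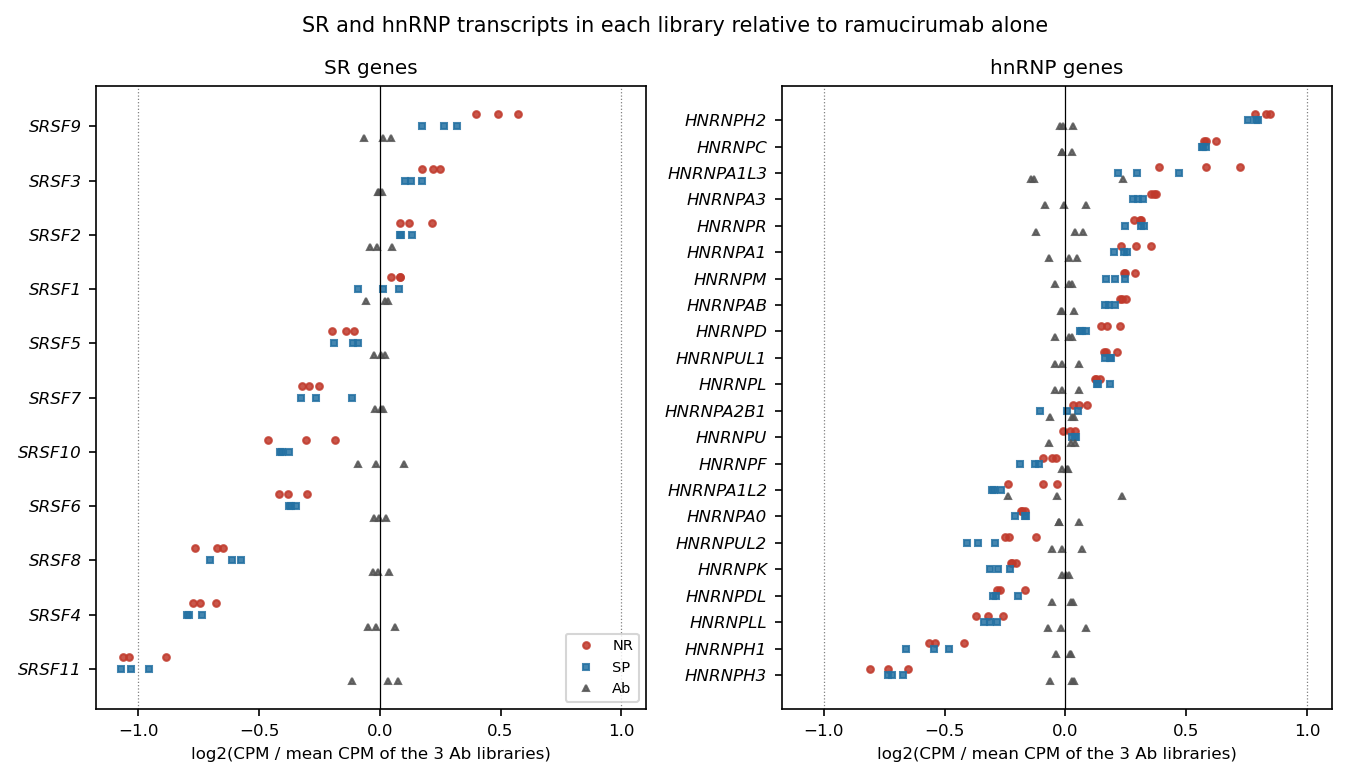
Level of each tested SR gene (left) and hnRNP gene (right) in every library, as the log2 ratio of its CPM to the mean CPM of the 3 Ab libraries; red circles are NR, blue squares SP and grey triangles Ab libraries, and dotted lines mark 2-fold. The NR and SP libraries of SRSF11 lie the farthest below its Ab libraries, near the lower 2-fold line, and those of HNRNPH2 the farthest above.

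The comparison of NR with SP sets gold nanorods against gold nanospheres that carried the same antibody. By the study's methods these particles also differed in size, supplier and measured surface charge, so the comparison does not isolate shape. SRSF9 was the one member past an adjusted p of 0.05, and it was higher in NR. It is a close relative of SRSF1, the founding SR protein, and lies at chr12:120899475-120933749 of GRCh37 on the minus strand. Its level was 98.0, 105 and 111 CPM in the NR libraries, 89.4, 92.9 and 84.0 in SP and, for Ab, 76.9, 71.1 and 75.1. The 3 groups did not overlap, with NR the highest and Ab the lowest. The mean was 104 ± 6.35 CPM in NR and 88.8 ± 4.47 in SP (SD, n = 3), which is 1.18-fold, or 0.23 on the log2 scale (SE 0.05, adjusted p = 0.0413). The call held without NR library 1 (adjusted p = 0.00764) but not without NR library 2 (0.142), NR library 3 (0.181), SP library 1 (0.114), SP library 2 (0.0751) or SP library 3 (0.086). It was also lost with the library number fitted as a block (adjusted p = 0.0791). Its exons share 46.7% of their bases with GATC and the non-coding gene NRAV. Neither the strand setting of the counting nor its handling of reads shared by genes is given. The SRSF9 counts may thus include reads of these genes or lack reads that were shared.

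So 1 of 11 tested SR genes and 0 of 22 hnRNP genes were called higher in NR, where 0.262% of all 14903 genes tested were, and 0 members were called lower, where 0.181% were. DESeq2 made the same counts of calls in both families, but gave no adjusted p to SRSF10, HNRNPA1L2, HNRNPA1L3 and HNRNPUL2. At an unadjusted p under 0.05, 2 SR genes (SRSF3, SRSF9) and 4 hnRNP genes (HNRNPA1L3, HNRNPA2B1, HNRNPD, HNRNPF) were higher in NR, 18.2% of each family's tested genes against 6.23% of all genes, and 0 were lower, against 6.67%. The libraries of both groups did not overlap, with NR higher, for 2 SR genes (SRSF3, SRSF9) and 7 hnRNP genes (HNRNPA1L2, HNRNPA3, HNRNPAB, HNRNPD, HNRNPF, HNRNPK, HNRNPUL2), against 8.21% of all genes, and with NR lower for 0 members, against 9.72%. Medians on the log2 scale were 0.05 for SR and 0.05 for hnRNP genes, beside -0.0005 for all genes tested. The SR median fell to 0.0100 without NR library 1 and the hnRNP median to 0.0361 without SP library 1. The members ranged from -0.06 (SRSF8) to 0.23.

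HNRNPD (AUF1), which binds AU-rich elements and promotes mRNA decay, had the next smallest p. Its level was 230.2, 222 and 218 CPM in NR, 209, 207 and 205 in SP and, for Ab, 201, 191 and 199, and NR did not overlap SP. The log2 fold change between NR and SP was 0.11 (SE 0.04, adjusted p = 0.174). SRSF3, at chr6:36562130-36573377, had 565, 553 and 536 CPM in NR, 512, 536 and 519 in SP and, for Ab, 473, 475 and 479. The lowest NR library was above the highest SP library by only 536.1 to 536.0 CPM, and the difference did not pass the test (log2 fold change 0.08, SE 0.04, adjusted p = 0.321). HNRNPA1L3, a near copy of the HNRNPA1 transcript whose reads may belong to HNRNPA1, had 28.0, 35.2 and 31.9 CPM in NR, 26.2, 24.8 and 29.6 in SP and, for Ab, 19.4, 25.2 and 19.5. Its NR and SP libraries overlapped (log2 fold change 0.23, SE 0.08, adjusted p = 0.222). The log2 fold change ran from 0.15 without NR library 2 to 0.33 without NR library 1.

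**Figure D2:**
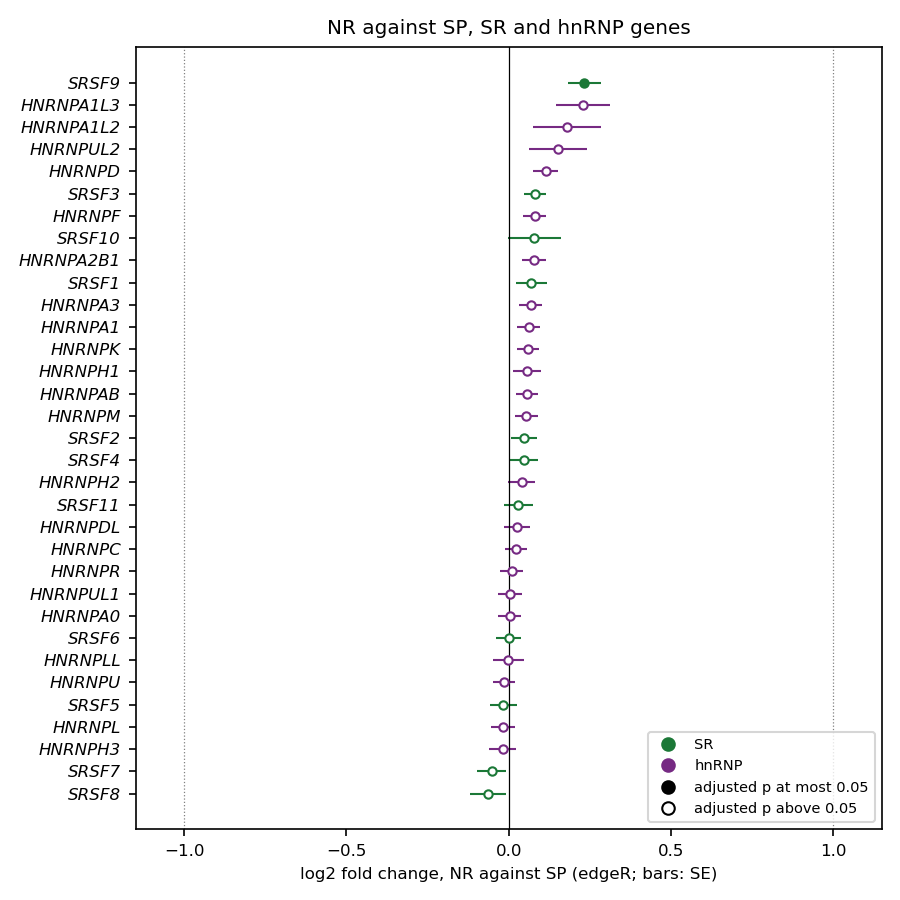
Log2 fold change of each tested member in NR against SP (horizontal axis) with its standard error as a bar; green points are SR and purple points hnRNP genes, and filled points have an adjusted p of at most 0.05. SRSF9 at 0.23 is the one filled point, and all members lie between -0.06 and 0.23, far inside the dotted 2-fold lines.

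**Figure D3:**
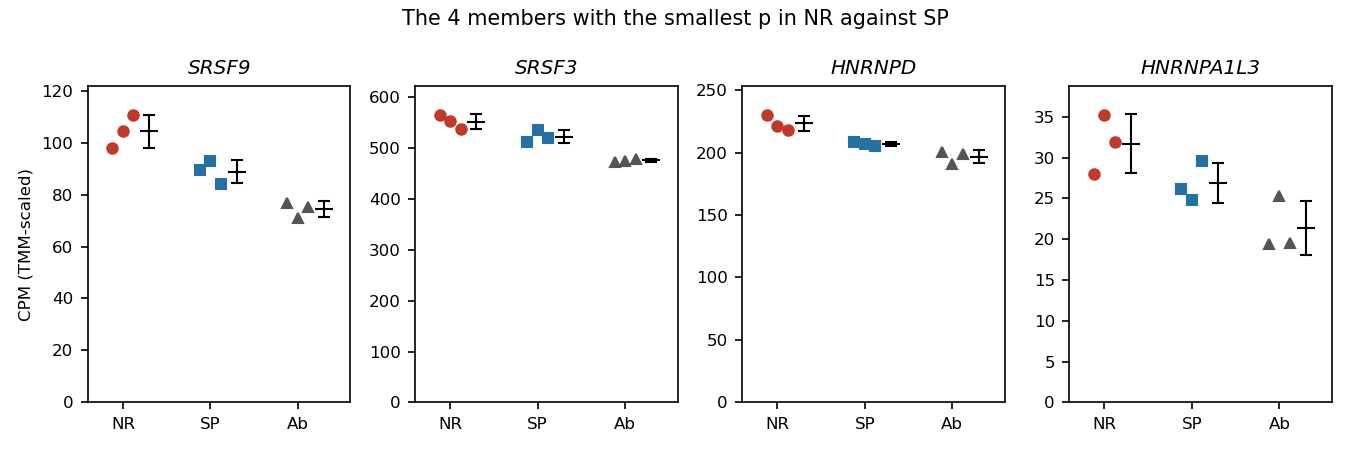
CPM of the 4 members with the smallest p in NR against SP in each library of the NR, SP and Ab groups, with the mean and SD beside each group (n = 3); each vertical axis starts at 0. For SRSF9 the 3 groups do not overlap, while for HNRNPA1L3 the NR and SP libraries do.

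Both nanoparticle groups were then set against antibody alone. The comparisons share the 3 Ab libraries, so their values are given side by side and were not used as support for each other. Of the 11 tested SR genes, 7 fell in NR (SRSF4, SRSF5, SRSF6, SRSF7, SRSF8, SRSF10 and SRSF11) and 3 rose (SRSF2, SRSF3 and SRSF9), where 36.4% of 15009 genes fell and 36.4% rose. In SP the same 7 fell and 2 rose (SRSF3 and SRSF9), where 36.6% of 15068 genes fell and 36.4% rose. The 7 falling SR genes were 63.6% of those tested. The median log2 fold change of the SR genes was -0.31 in NR and -0.26 in SP, beside -0.0055 and -0.0067 over all genes. SRSF1 passed in neither comparison (log2 fold change 0.04, SE 0.05, adjusted p = 0.414 in NR and -0.02, SE 0.05, adjusted p = 0.712 in SP), although upper-quartile scaling called it higher in NR (adjusted p = 0.0341).

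SRSF11, at chr1:70671365-70718735 on the plus strand, had the largest fall of all members. It encodes an SR protein first described as a 54 kDa partner of the U2AF splice site factor. Its level was 172, 152 and 155 CPM in NR, 156, 164 and 151 in SP and, for Ab, 294, 326 and 335. Every NR and SP library was thus far below every Ab library. The log2 fold change was -1.02 (SE 0.05, adjusted p = 8.53e-15) in NR and -1.04 (SE 0.05, adjusted p = 1.57e-16) in SP. It was the 1 SR gene that fell at least 2-fold, where 10.3% of all genes did in NR and 10.6% in SP, and 0 members of either family rose at least 2-fold, where 12.4% and 12.6% did. Over the alternatives its log2 fold change ran from -1.08 to -0.95 in NR and from -1.10 to -0.98 in SP, so it lay at the 2-fold line rather than clearly past it.

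SRSF4, at chr1:29474255-29508412 on the minus strand, belongs with SRSF5 and SRSF6 to a subgroup with paired RNA recognition motifs. It had 148, 141 and 139 CPM in NR, 136, 142 and 137 in SP and, for Ab, 247, 229 and 234. The Ab libraries were again all above the others (log2 fold change -0.76, SE 0.05, adjusted p = 1.66e-14 in NR and -0.80, SE 0.05, adjusted p = 1.35e-14 in SP). SRSF6 and SRSF5 of the same subgroup fell less, by 0.39 (SE 0.04) and 0.17 (SE 0.05) on the log2 scale in NR, and the call of SRSF5 was lost with upper-quartile scaling (adjusted p = 0.0506 in NR and 0.106 in SP) and, in SP, without SP library 3 (0.051). SRSF8, a copy of SRSF2 at chr11:94800083-94804388, had 64.1, 62.9 and 59.1 CPM in NR, 67.5, 65.7 and 61.7 in SP and, for Ab, 99.8, 103 and 98.3. Both nanoparticle groups lay below Ab without overlap (log2 fold change -0.72, SE 0.05, adjusted p = 1.14e-12 in NR and -0.65, SE 0.06, adjusted p = 4.37e-11 in SP).

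Its parent gene SRSF2 (SC35), at chr17:74730197-74733415, is the classical marker protein of nuclear speckles. SRSF2 had 219, 199.7 and 205 CPM in NR, 199, 206 and 199.8 in SP and, for Ab, 187, 183 and 195. All NR and SP libraries were above Ab by a narrow margin, and the rise passed the test in NR (0.12 on the log2 scale, SE 0.05, adjusted p = 0.0243) but not in SP (0.07, SE 0.05, adjusted p = 0.149), where it passed with upper-quartile scaling (0.00678). The NR call was lost without NR library 1 (adjusted p = 0.172), without Ab library 2 (0.113), with at least 10 counts required in every library (0.0631) and with no filter (0.0502). SRSF9 had the largest rise of the SR genes (log2 fold change 0.46, SE 0.06, adjusted p = 2.1e-08 in NR and 0.23, SE 0.06, adjusted p = 0.000851 in SP). SRSF3 rose by a log2 fold change of 0.19 in NR (SE 0.04, adjusted p = 0.000144) and 0.11 in SP (SE 0.04, adjusted p = 0.0202), and the SP call was lost without Ab library 2 (0.053), Ab library 3 (0.0666) or SP library 2 (0.124).

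The hnRNP genes went both ways. In NR, 11 of 22 rose (HNRNPA1, HNRNPA1L3, HNRNPA3, HNRNPAB, HNRNPC, HNRNPD, HNRNPH2, HNRNPL, HNRNPM, HNRNPR and HNRNPUL1) and 8 fell (HNRNPA0, HNRNPDL, HNRNPF, HNRNPH1, HNRNPH3, HNRNPK, HNRNPLL and HNRNPUL2), where 36.4% of all genes rose and 36.4% fell. In SP, 10 rose, the same ones except HNRNPD, and 9 fell, the same ones and HNRNPA1L2, where 36.4% of all genes rose and 36.6% fell. No hnRNP gene changed 2-fold, with a median on the log2 scale of 0.07 in NR and 0.03 in SP. Upper-quartile scaling gave medians of 0.14 and 0.0965 beside 0.0667 and 0.0624 over all genes, and the SP median was 0.0131 without SP library 1. HNRNPA2B1 and HNRNPU, a nuclear matrix and chromatin scaffold protein, passed in neither comparison, except that HNRNPA2B1 was called higher in NR with upper-quartile scaling (adjusted p = 0.0182). Calls near the threshold included those of HNRNPF in NR (adjusted p = 0.0444, and 0.0622 to 0.111 without Ab library 2, Ab library 3, NR library 2 or NR library 3), of HNRNPL (0.0407 in NR and 0.0205 in SP) and of HNRNPUL2 in NR (0.0205). In NR, HNRNPL stayed past the threshold in 1 of 6 fits that left out a library, and was lost without Ab library 2 (0.112), Ab library 3 (0.217), NR library 1 (0.0836), NR library 2 (0.0955) or NR library 3 (0.077). In SP it was lost without Ab library 2 (0.0726), Ab library 3 (0.134) or SP library 3 (0.0509). HNRNPUL2 was lost in NR without Ab library 3 (0.0738), NR library 1 (0.0565) or NR library 3 (0.0597). The NR call of HNRNPF was also lost with RLE (0.0598) and upper-quartile scaling (0.708), that of HNRNPL with DESeq2 (0.0552), with at least 10 counts required in every library (0.084) and with no filter (0.104), and that of HNRNPUL2 with DESeq2 (0.0966) and upper-quartile scaling (0.107). HNRNPA1L2, all of whose exon bases lie within another annotated gene, was called in SP at an adjusted p of 0.0158, and the call was lost with DESeq2 (0.0746), with upper-quartile scaling (0.0557), without Ab library 3 (0.164) and without SP library 3 (0.0542).

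HNRNPH2, at chrX:100663210-100669121 on the plus strand, had the largest rise of all members. Its level was 136, 142 and 141 CPM in NR, 134, 137 and 138 in SP and, for Ab, 78.6, 80.8 and 77.9. The lowest nanoparticle library was well above the highest Ab library (log2 fold change 0.79, SE 0.05, adjusted p = 1.87e-14 in NR and 0.76, SE 0.05, adjusted p = 2.27e-13 in SP), although the exons share 15.8% of their bases with the read-through gene RPL36A-HNRNPH2. HNRNPH1, HNRNPH2, HNRNPH3 and HNRNPF form one subfamily that binds runs of G and acts as enhancer or silencer depending on position. HNRNPH1, at chr5:179041179-179061785, had 635, 576 and 584 CPM in NR, 539, 583 and 609 in SP and, for Ab, 827, 864 and 861. HNRNPH3, at chr10:70090931-70102950, had 182, 171 and 163 CPM in NR, 171, 179 and 173 in SP and, for Ab, 272, 292 and 290.4. Both lay below Ab without overlap, on the log2 scale by -0.53 (SE 0.04, adjusted p = 5.34e-12) and -0.76 (SE 0.05, adjusted p = 2.73e-14) in NR and by -0.59 (SE 0.05, adjusted p = 4.5e-12) and -0.73 (SE 0.05, adjusted p = 4.06e-14) in SP. HNRNPF, at chr10:43881065-43904634, moved little, with 559, 553 and 539 CPM in NR, 505, 533 and 527 in SP and, for Ab, 579.7, 568 and 577. Its log2 fold change was -0.09 (SE 0.04) in NR and -0.17 (SE 0.04, adjusted p = 0.000841) in SP.

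**Figure D4:**
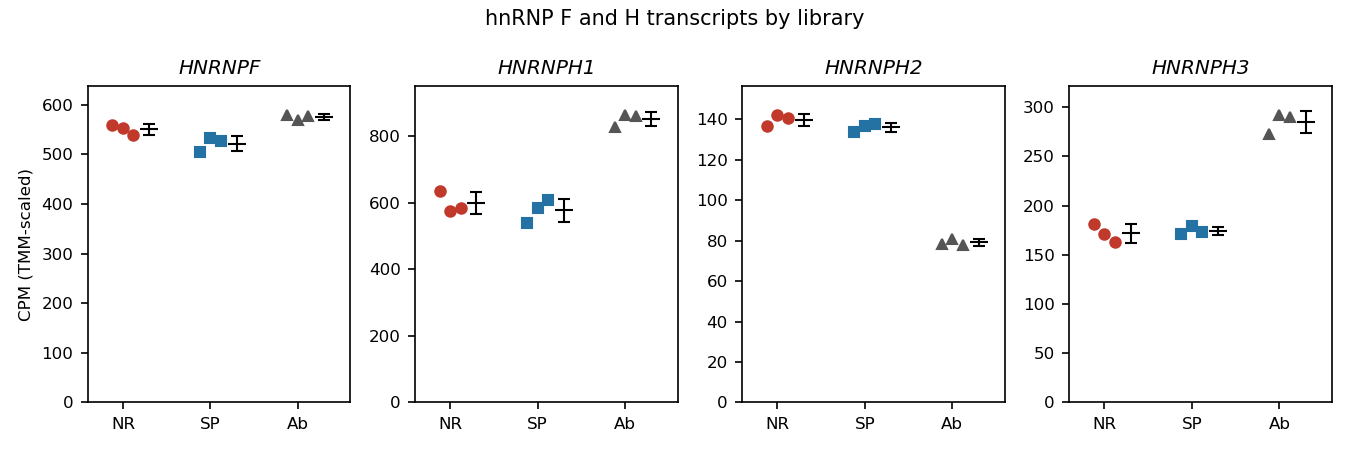
CPM of the 4 genes of the hnRNP F and H subfamily in each library of the NR, SP and Ab groups, with the mean and SD beside each group (n = 3); each vertical axis starts at 0. HNRNPH2 is higher and HNRNPH1 and HNRNPH3 are lower in NR and SP than in Ab with no overlap, while HNRNPF is nearly level.

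Because the counts of related genes were read in the same library, their ratio does not depend on how the libraries were scaled. The log2 ratio of HNRNPH2 to HNRNPH1 was -2.10 ± 0.11 in NR, -2.08 ± 0.07 in SP and -3.43 ± 0.04 in Ab (SD, n = 3), a difference from Ab of 1.33 in NR and 1.34 in SP. That of HNRNPH2 to HNRNPH3 differed from Ab by 1.55 in NR and 1.49 in SP. That of HNRNPF to HNRNPH1 differed by less, 0.45 in NR and 0.42 in SP. The wide differences join genes already seen to go opposite ways. Other pairs of relatives also had ratios above those of every Ab library in NR and in SP. The differences of the log2 ratio, NR first and SP second, were 0.54 and 0.48 for HNRNPA3 to HNRNPA0, 0.42 and 0.33 for HNRNPD to HNRNPDL, 0.45 and 0.46 for HNRNPL to HNRNPLL, and 0.38 and 0.53 for HNRNPUL1 to HNRNPUL2. Among SR genes they were 0.84 and 0.73 for SRSF2 to SRSF8, 0.50 and 0.37 for SRSF3 to SRSF7, which is also an export adaptor, and 0.42 and 0.25 for SRSF9 to SRSF1. These pairs were chosen with their values known and were not tested. Other genes overlap 54.8% of the exon bases of HNRNPA3 (NFE2L2 and MIR4444-1) and 44.3% of those of HNRNPUL2. The overlap is 35.1% for SRSF1 and 27.7% for SRSF2 (MFSD11 and MIR636). Reads of the overlapping genes may thus enter the counts of these members, or shared reads may be missing from them.

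HNRNPC, at chr14:21677295-21737653, had the next largest rise. Its protein binds tracts of U and keeps Alu elements from being spliced as exons. It had 1026, 998 and 993 CPM in NR, 999, 985 and 989.7 in SP and, for Ab, 679.7, 659.7 and 660.1, with no overlap (0.57 on the log2 scale, SE 0.04, adjusted p = 2.18e-13 in NR and 0.55, SE 0.04, adjusted p = 2.3e-12 in SP). HNRNPA1L3 rose by a log2 fold change of 0.52 in NR (SE 0.11, adjusted p = 0.000882) and 0.29 in SP (SE 0.10, adjusted p = 0.0114), where its SP and Ab libraries overlapped and the call was lost without Ab library 1 (0.055), Ab library 3 (0.0596), SP library 1 (0.0646) or SP library 3 (0.081). HNRNPA1 itself, the best known splicing repressor of the family, rose by 0.27 (SE 0.04, adjusted p = 2.01e-06) and 0.21 (SE 0.04, adjusted p = 9.29e-05). HNRNPAB, at chr5:177631534-177638164, had 577, 579.9 and 587 CPM in NR, 553, 559 and 569 in SP and, for Ab, 505, 486 and 489, with no overlap between any groups. Its log2 fold change against Ab was 0.21 (SE 0.04, adjusted p = 3.28e-05) in NR and 0.16 (SE 0.04, adjusted p = 0.00139) in SP. HNRNPD rose in NR (0.16 on the log2 scale, SE 0.04, adjusted p = 0.00242), while its 0.05 in SP did not pass (SE 0.05, adjusted p = 0.369), except with upper-quartile scaling (adjusted p = 0.0251).

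HNRNPLL, a relative of the CA-repeat binding HNRNPL known for exon switching of CD45 in T cells, lies at chr2:38789111-38830728. It had 87.4, 81.0 and 83.7 CPM in NR, 82.9, 85.9 and 84.4 in SP and, for Ab, 99.5, 111 and 104. Both nanoparticle groups were below Ab without overlap (log2 fold change -0.34, SE 0.05, adjusted p = 1.97e-06 in NR and -0.34, SE 0.06, adjusted p = 4.19e-06 in SP). In SP the fall of HNRNPUL2 was larger than that of HNRNPLL, with 15.7, 16.9 and 15.5 CPM in NR, 13.9, 14.3 and 15.1 in SP and, for Ab, 17.7, 18.2 and 19.3 (log2 fold change -0.23, SE 0.09, adjusted p = 0.0205 in NR and -0.38, SE 0.09, adjusted p = 0.000391 in SP). The poly-C binding HNRNPK fell by 0.24 on the log2 scale in NR (SE 0.04, adjusted p = 1.8e-06) and by 0.30 in SP (SE 0.04, adjusted p = 2.59e-07), and HNRNPDL fell by 0.27 (SE 0.04, adjusted p = 4.3e-06) and 0.29 (SE 0.04, adjusted p = 1.84e-06). Of the 29 calls in NR against Ab, 24 held in every refit with another tool, scaling, filter or model and with each library left out, where these gave a value, and of the 28 calls in SP against Ab, 23 did. Minimum folds are not among these fits, and few members passed them.

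The genes around these families were read from lists of splicing genes. Of 10 kinases of SR proteins and factors of RS-domain import, 9 fell and 1 (SRPK2) rose in both NR and SP against Ab, where 36.4% to 36.6% of all genes fell and 36.4% rose. CLK1, which phosphorylates SR proteins in the nucleus, had 42.2, 41.5 and 36.7 CPM in NR, 36.2, 41.0 and 37.9 in SP and, for Ab, 133, 149 and 147. It lay far below Ab in both groups (log2 fold change -1.86, SE 0.06, adjusted p = 9.92e-21 in NR and -1.93, SE 0.06, adjusted p = 1.59e-20 in SP). Its relatives CLK2 and CLK4 fell by 1.01 (SE 0.06, adjusted p = 1.61e-14) and 1.17 (SE 0.07, adjusted p = 3.42e-14) on the log2 scale in NR and by 0.97 (SE 0.06, adjusted p = 1.35e-13) and 1.20 (SE 0.07, adjusted p = 2.18e-14) in SP. On the log2 scale the list had a median of -0.74 in NR and -0.73 in SP.

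Of 26 SR-related proteins, which carry arginine-serine repeats but are not SRSF genes, 20 fell (76.9%) and 2 rose (7.69%) in each comparison with Ab, against the 36.4% to 36.6% of all genes that fell and the 36.4% that rose, with a median of -0.53 in NR and -0.43 in SP. RBM39, a splicing cofactor resembling U2AF, had 326 ± 13.9 CPM in NR, 309.9 ± 16.1 in SP and 813 ± 29.6 in Ab (SD, n = 3; log2 fold change -1.34, SE 0.04, adjusted p = 7.54e-21 in NR and -1.42, SE 0.05, adjusted p = 2.01e-20 in SP). LUC7L, a relative of a U1 particle component of yeast, had 23.6 ± 2.74, 24.7 ± 1.35 and 77.0 ± 2.31 CPM in the same order (log2 fold change -1.72, SE 0.07, adjusted p = 1.49e-18 in NR and -1.67, SE 0.06, adjusted p = 1.01e-18 in SP).

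Of 35 other splicing regulators tested, 17 fell in each comparison (48.6%), while 8 rose in NR (22.9%) and 6 in SP (17.1%), beside 36.4% to 36.6% of all genes falling and 36.4% rising. Among those that fell, MATR3 had only 14 to 53 counts in a library. The FET-family protein EWSR1 fell by 0.72 on the log2 scale in NR (SE 0.04, adjusted p = 9.66e-15) and 0.74 in SP (SE 0.04, adjusted p = 1.48e-14), and the cold-inducible CIRBP fell by 1.04 (SE 0.06, adjusted p = 1.19e-14) and 1.05 (SE 0.07, adjusted p = 7.88e-14). Of 49 core spliceosome genes tested, 22 rose and 17 fell in NR, and 21 rose and 17 fell in SP. These shares, 44.9% and 42.9% rising and 34.7% falling, were near those of all genes. SF3A3 of the U2 particle rose by 1.04 on the log2 scale (SE 0.05, adjusted p = 1.13e-17 in NR and SE 0.05, adjusted p = 3.59e-17 in SP), and the U5 GTPase EFTUD2 by 1.07 in NR (SE 0.05, adjusted p = 1.03e-16) and 1.08 in SP (SE 0.05, adjusted p = 3.63e-16). The core spliceosome had medians of 0.10 and 0.08, near those of the hnRNP genes. U2AF1, a core factor, was listed at 0 counts in all libraries. Such a value does not show that the transcript was absent from the cells, and its reason was not tested. Of 15 NMD factors, 10 fell (66.7%, against 36.4% to 36.6% of all genes) and 2 rose (13.3%, against 36.4%) in each comparison, with a median of -0.46 in NR and -0.48 in SP, among them SMG5 (log2 fold change -1.03, SE 0.05, adjusted p = 1.98e-17 in NR and -1.07, SE 0.05, adjusted p = 2.56e-17 in SP) and CASC3 (-0.90, SE 0.05, adjusted p = 2.08e-15 in NR and -0.86, SE 0.05, adjusted p = 3.69e-14 in SP). Between NR and SP, edgeR called 0 of the 134 genes tested in the 5 lists, while at an unadjusted p under 0.05 there were 9 with higher and 12 with lower levels in NR, 6.72% and 8.96% of them and so near the 6.23% and 6.67% of all genes. DESeq2 called 1 SR-related gene (SRRM2) and 1 NMD factor (SMG1) lower and 1 other regulator (PCBP2) and 1 core gene (SNRPG) higher in NR, where it called 1.77% of the 3909 genes to which it gave an adjusted p higher and 1.89% lower.

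**Figure D5:**
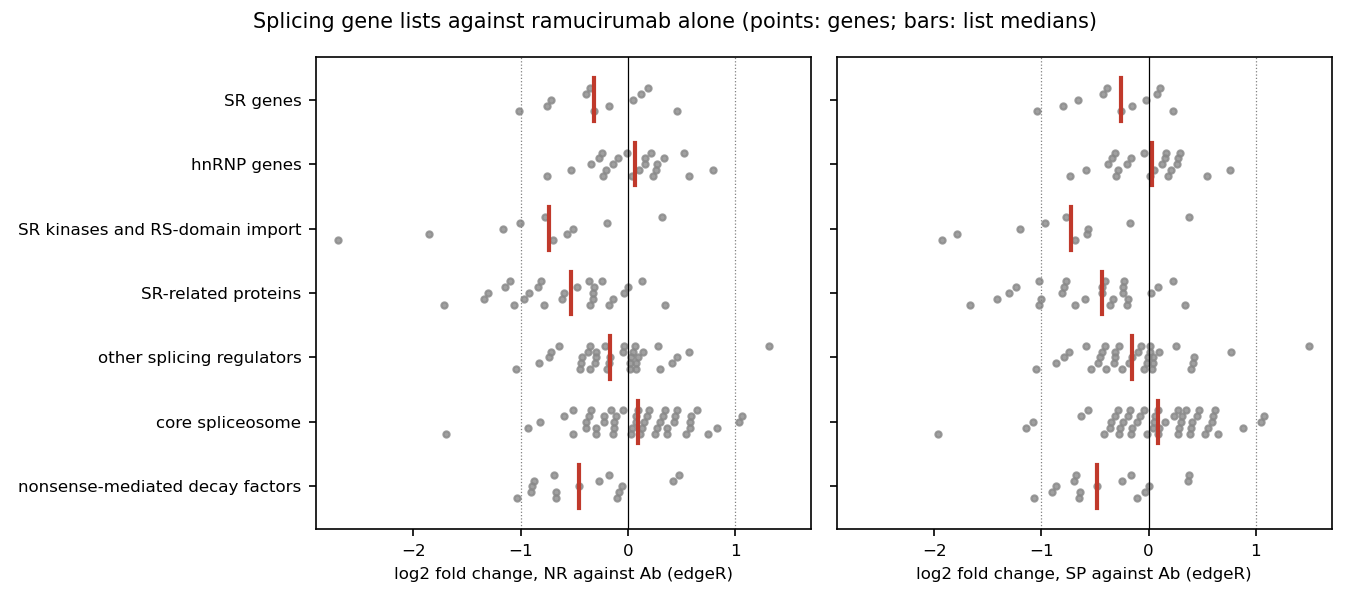
Log2 fold changes of the tested genes of both families and of 5 lists of splicing genes in NR (left) and SP (right) against Ab; each grey point is a gene, each red bar a list's median, and dotted lines mark 2-fold. The medians of the kinases (-0.74 and -0.73), the SR-related proteins (-0.53 and -0.43) and the NMD factors (-0.46 and -0.48) lie below 0, while those of the hnRNP genes (0.07 and 0.03) and the core spliceosome (0.10 and 0.08) lie near it.

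Gene counts add up all transcripts of a gene, so productive and NMD-targeted forms were not separated. In the annotation, all 11 tested SR genes had at least 1 transcript of the NMD class, as did 63.6% of the hnRNP genes and 47.6% of 12132 protein-coding genes tested. Transcripts that keep an intron were listed for 81.8% of the SR genes, 68.2% of the hnRNP genes and 60.9% of the protein-coding genes. Reads can also be drawn to processed copies. The 74 pseudogenes named after HNRNPA1 held 7.56% as much CPM as HNRNPA1 itself in NR, 7.43% in SP and 9.68% in Ab. Those of HNRNPA3, HNRNPC, HNRNPK and HNRNPL held 2.56% to 4.53% of their parent, and those of the other members less than 1%. The values of HNRNPA1, HNRNPA1L2 and HNRNPA1L3 are therefore uncertain where reads could fit several copies.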

How the data were processed

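The 9 poly-A libraries were made with a NEBNext kit, and neither a strand-specific preparation nor the strand setting of the counting is given in the sources used here. The authors cleaned the reads of adapters, poly-N and low quality, aligned them with HISAT2 2.1.0 and counted reads per gene (the counter is given under 2 names), and tested groups with DESeq2 1.16.1. The deposited values are whole read counts per Ensembl gene ID, not scaled between libraries. The genome is given as hg19 in the reporting summary and as mm9 in the submitters' processing notes, whereas the IDs are human. Of the 60880 IDs, 59858 were named and placed with GENCODE release 44 on GRCh37, and the 1022 others held 0.102% to 0.115% of a library's counts.

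Each comparison used the 6 libraries concerned and was fitted by edgeR 4.0.16 under R 4.3.3 (TMM, filterByExpr with a minimum count of 10 and total of 15, robust quasi-likelihood test, Benjamini-Hochberg over all genes tested, with calls where the adjusted p was 0.05 or less). A count of 3, the floor that a count of 0 allows, was 0.114 to 0.2164 CPM, counting error only. Chi-square values per gene between libraries of a group were 1.84 to 7.43, so each was counted once. CPM per kb used the union of annotated exons. The alternatives were DESeq2 1.42.0, RLE and upper-quartile scaling, other filters, a replicate block, one fit of all 9 libraries, fold minima of 1.5 and 2, and each library left out. Fits were tested on simulated data. Python 3.11.15 with pandas 2.3.3, numpy 2.4.6 and matplotlib 3.10.9 made tables and figures. Full values are given for the members past an adjusted p of 0.05 in NR against SP (filled up to 4 by the smallest p), for the 3 largest rises and 3 largest falls of each family in NR against Ab (among those past an adjusted p of 0.05 with at least 100 counts on average in the higher group), for the highest per length and for those not tested, and 2 genes of each list are named by the smallest p in NR against Ab. SRSF5, SRSF6, SRSF1, HNRNPA1, HNRNPF, HNRNPK, HNRNPDL, HNRNPL, HNRNPUL2, HNRNPA1L2, HNRNPA2B1, CLK4, SRRM2, SMG1, PCBP2, SNRPG and the pairs of relatives were added after their values were seen. The members, gene lists and pairs were chosen with earlier results of these data known. The summed level of the leukocyte markers is not reported here.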

Additional observations from a re-analysis of the deposited data

Results flagged for a closer look

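SRSF9 was the 1 member whose change against Ab differed between the nanoparticle groups by the test of NR against SP itself. The difference was 0.23 on the log2 scale, higher in NR in 3 of 3 libraries than in any SP library, with an adjusted p of 0.0413 (edgeR). The call held in 1 of 6 fits that left out a library, and was lost with the replicate block (adjusted p = 0.0791). Its exons overlap those of GATC and NRAV, and the part of added or missing reads of shared exons in the result was not tested. With 3 libraries per group, no single library was tested for standing apart.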

How the results depend on the processing

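SRSF9 was called in NR against SP with DESeq2, both other scalings, both other filters and all 9 libraries in one fit. No SR gene (0) was called there with a fold minimum of 1.5 or 2, or with the replicate block (SRSF9: log2 fold change 0.23, adjusted p = 0.0791), and 0 to 1 were when a library was left out. Libraries of the same number correlated by -0.0317 to 0.0279 in their deviations from the group means, and those of different number by -0.0339 to 0.0348. No deviation shared by number was thus seen. These values cannot tell whether libraries of the same number were cultured or handled together. The block changed 3 calls of members in all, the other ones being HNRNPF and HNRNPL in NR against Ab (adjusted p = 0.0662 and 0.0661).

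Against Ab, fold minima of 1.5 and 2 left 0 and 0 SR genes higher and 3 and 1 lower in NR, and 0 and 0 higher and 3 and 1 lower in SP. They left 1 and 0 hnRNP genes higher and 1 and 0 lower in NR, and 1 and 0 higher and 2 and 0 lower in SP. Upper-quartile scaling raised the median of all genes to 0.0667 in NR and 0.0624 in SP, and the medians of SR genes to -0.24 and -0.19 and of hnRNP genes to 0.14 and 0.0965. Without a filter the hnRNP median in NR was 0.0956. Leaving out a library gave 1 to 2 SR genes higher in SP and an SR median of -0.33 to -0.20 there.

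For the 5 lists, tried as an addition after the data were seen, SR-related genes lower in NR than SP numbered 1 with DESeq2, 1 without a filter and 0 to 2 with a library left out, and NMD factors 1, 1 and 0 to 1. DESeq2 had 1 other regulator and 1 core gene higher in NR. SR-related genes higher in NR than Ab numbered 1 with 10 counts in every library and 1 to 2 with a library left out, and 10 other regulators were higher in SP than Ab with upper-quartile scaling.

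Of 546 values of named members under an alternative, 519 kept their direction and side of the threshold, 17 lost and 2 gained a call, 7 turned direction, all in NR against SP and none past the threshold, and 1 (HNRNPA1L3 in NR against SP, 0.24) got no adjusted p from DESeq2. HNRNPLL was 0.0004 with RLE, 0.0002 with all 9 libraries, 0.0004 with upper-quartile scaling, and -0.0286 to 0.0211 with a library left out, SRSF11 ran from -0.0251 (without NR library 1) to 0.0613 and HNRNPH3 from -0.0586 to 0.0162 (without NR library 3). The cause of these changes was not tested. With 3 libraries a group, shared exons, unknown strand and no isoform counts, small differences and splice forms could not be resolved, and differences between groups cannot be told apart from any unrecorded batch.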
